A study of Mus musculus with 17 samples.

Results

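The nuclear genes for mitochondrial ribosomal proteins, named Mrpl for the large subunit and Mrps for the small subunit, were followed through 17 RNA sequencing libraries of mouse fetal liver cells. Members were all genes whose symbol is Mrpl or Mrps followed by a number and at most 1 letter, which gave 78 of the 47069 genes listed in the table with the Arid3a libraries. All 78 identifiers were also present in both other tables, where Mrpl58 carries its older name Ict1. The symbol rule used no measured value. The named members do not lie in 1 place: they are spread over 17 chromosomes (GRCm38), with exonic lengths, as used here, from 566 to 8631 bases.

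The embryos were E12.5 to 13.5, from a B6J.129 mouse strain with a CAG-driven Cas9 and EGFP insertion at the Rosa26 locus. Every group except WT carried the guide sgGata1, and the labels call these cells Gata1s, a name for a shortened GATA1, a transcription factor of blood cells; the controls LUC and sh-ctrl carry the guide too. The second transgene was LUC (luciferase, 3 libraries) or Arid3a (3) with doxycycline at 1 µg/mL for 48 h, and sh-ctrl (a control short hairpin RNA, 3), shArid3a (a hairpin against Arid3a, 2 libraries, numbered 1 and 3) or miR-125b (3) with the same dose for 10 days. The WT group (3 libraries) carried sgLuc and shLuc and had no doxycycline, so guide, hairpin, treatment and count table all differ between it and the other groups. The labels do not say whether the libraries of a group came from separate embryos or cultures, so p-values measure the spread between these libraries, which may be technical.

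Mitochondria have their own ribosome, the mitoribosome, which makes the few proteins encoded by the mitochondrial genome, all of them subunits of the respiratory chain and of ATP synthase. Its RNAs come from mitochondrial DNA, whereas all of its proteins are encoded in the nucleus, made in the cytosol and imported, so 2 genomes have to be expressed together for 1 particle. Erythroid precursors, abundant in fetal liver, depend on mitochondria for energy and for heme. By their place in the particle, 51 members belong to the large subunit and 26 to the small subunit. Mrps18a and Mrps30 are counted with the large subunit, where their proteins sit in spite of the name, and Mrps36 stands apart because its protein has been assigned to the alpha-ketoglutarate dehydrogenase complex.

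Promoters of 4 members are shown first, because these genes mark the range of the responses described below: Mrps6 had the largest rise with miR-125b, Mrpl35 the largest positive difference with the hairpin, Mrpl33 nearly the largest negative one in the libraries labelled Arid3a, and Mrpl24 differed by little in any comparison. Each runs from 250 bases before to 50 bases after the RefSeq gene start (GRCm38.p6), in the direction of transcription. Mrps6 lies at chr16:92058086-92058385 (plus strand), Mrpl35 at chr6:71823735-71824034 (minus strand), Mrpl33 at chr5:31613701-31614000 (plus strand) and Mrpl24 at chr3:87919294-87919593 (plus strand). Capitals mark exact matches, on either strand, to 5 motifs: CCGGAAG (ETS factors such as GABPA), GCATGCGC (NRF1), AAGATGG (YY1), CACGTG (E-box) and CCAAT.
Mrps6: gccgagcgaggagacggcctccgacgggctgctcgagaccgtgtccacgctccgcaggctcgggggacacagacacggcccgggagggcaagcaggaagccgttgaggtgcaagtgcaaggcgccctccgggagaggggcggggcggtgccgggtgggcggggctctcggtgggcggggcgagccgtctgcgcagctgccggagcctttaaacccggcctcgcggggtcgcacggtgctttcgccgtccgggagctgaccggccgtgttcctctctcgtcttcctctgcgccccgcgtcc
Mrpl35: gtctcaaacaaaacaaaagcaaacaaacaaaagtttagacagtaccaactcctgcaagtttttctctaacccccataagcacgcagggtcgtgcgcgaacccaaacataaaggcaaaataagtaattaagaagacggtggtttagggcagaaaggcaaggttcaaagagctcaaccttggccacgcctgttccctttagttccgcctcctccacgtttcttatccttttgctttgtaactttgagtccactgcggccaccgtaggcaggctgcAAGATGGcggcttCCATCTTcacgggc
Mrpl33: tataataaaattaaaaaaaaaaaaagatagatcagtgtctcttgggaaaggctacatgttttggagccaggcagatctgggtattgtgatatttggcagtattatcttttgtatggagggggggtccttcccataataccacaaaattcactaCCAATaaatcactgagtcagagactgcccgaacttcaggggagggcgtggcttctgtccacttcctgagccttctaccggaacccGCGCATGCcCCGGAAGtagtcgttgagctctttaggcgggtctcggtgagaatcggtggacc
Mrpl24: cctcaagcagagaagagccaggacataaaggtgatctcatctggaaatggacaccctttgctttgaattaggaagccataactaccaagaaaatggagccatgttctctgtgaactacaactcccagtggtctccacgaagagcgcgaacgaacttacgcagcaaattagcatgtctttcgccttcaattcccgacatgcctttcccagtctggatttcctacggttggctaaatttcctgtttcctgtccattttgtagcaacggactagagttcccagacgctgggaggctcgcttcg

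In this window Mrpl33 held 1 match each to CCAAT, GCATGCGC and CCGGAAG, Mrpl35 held 2 matches to AAGATGG, and Mrps6 and Mrpl24 held none of the 5. RefSeq promoters were at hand for 69 of the 78 members. CCGGAAG was present in 25 of them (36.2%) against 9.12% of all 27025 promoters of the same length, AAGATGG in 13 (18.8% against 6.48%) and GCATGCGC in 8 (11.6% against 2.80%). At least 1 of these 3 was present in 37 members (53.6%, against 17.02% of all promoters). The E-box (7.25% against 7.24%) and CCAAT (39.1% against 37.9%) were about as frequent in members as elsewhere. The 27025 promoters were not matched to members by gene type, expression or base content. Whether the excess of the 3 motifs is particular to this family was not tested. CCGGAAG and AAGATGG both hold AAG and can overlap, and each promoter was counted once per motif. GABPA, NRF1 and YY1 are known as regulators of nuclear genes for mitochondrial proteins, and a match here describes letters, not binding. Members with and without CCGGAAG had like medians with miR-125b, 0.59 and 0.62 on the log2 scale (differences defined below), and with the hairpin, 0.57 and 0.50. In the libraries labelled Arid3a the medians were −0.32 with it and −0.22 without, and a difference was tested in none of the 3.

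Another sequence bears on the microRNA group. MiR-125b acts by pairing its seed, bases 2 to 8, with sites in the 3′ untranslated region (UTR) of messenger RNAs, which lowers them. The mature mouse sequence (RefSeq) has its seed in capitals.
mmu-miR-125b-5p: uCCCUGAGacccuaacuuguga

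A match to the whole seed (CTCAGGG) occurred in 3′ UTRs annotated by GENCODE M21 (GRCm38) in 6 of 78 members, 7.69%, against 13.8% of 20642 protein-coding genes. The longest UTR of a member ran from 15 bases (Mrps15) to 6651 bases (Mrpl17). A longer UTR has more room for a match, and a comparison at like UTR length was not made. The longer form of the match, with an A at its end (CTCAGGGA), was present in 2 members (2.56%, against 4.90% of protein-coding genes), Mrps10 and Mrps25. The sites follow, with the matching bases in capitals; that of Mrps10 starts at base 3 of a 394-base UTR and that of Mrps25 at base 1012 of a 5497-base UTR.
Mrps10: gcCTCAGGGAtggcggat
Mrps25: gcaggggtCTCAGGGAggcagtgc

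These 2 members lay at opposite ends of the family with miR-125b: Mrps25 had the second largest rise (log2 fold change 1.03) and Mrps10 one of the smallest differences (0.12, not called). The other 4 with a seed match, Mrpl16, Mrpl19, Mrps17 and Mrps26, had log2 fold changes of 0.67, 0.57, 0.40 and 0.38. All 6 values were positive.

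Depth, as the sum of counts per library, was 31339238 to 38678649 for LUC and Arid3a, 31992089 to 40859301 for sh-ctrl, shArid3a and miR-125b, and 16362439 to 19212193 for WT. Arid3a itself checks the labels. With the hairpin it was at 20.4 and 18.9 CPM (counts scaled to a common library size) against 45.2, 56.3 and 57.2 in sh-ctrl, and with miR-125b at 7.14, 9.75 and 10.0, both called as lower. In the libraries labelled Arid3a it was at 58.3, 74.3 and 80.1 CPM against 67.3, 64.0 and 70.2 in LUC, a difference within the spread (log2 fold change 0.08, SE 0.12, adjusted p 0.737), so that group is called by its label throughout. Hepatocyte markers summed to at most 5.65 CPM in any library. Megakaryocyte markers summed to between 2458 and 4681 CPM in the Gata1s groups and to between 1049 and 1308 in WT, where granulocyte and monocyte markers reached 6391 to 7445 CPM against 5.46 to 145 in the Gata1s groups. Also higher in WT were macrophage markers (304 to 376 CPM against at most 3.13) and pan-hematopoietic markers (847 to 1020 against at most 99.9). The same held for mast cell and basophil markers (1130 to 1276 against at most 992) and stroma and endothelium markers (212.3 to 245.5 against at most 183.2). Erythroid and B and T cell markers overlapped between WT and the Gata1s groups.

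Transcripts of the 78 members together made up about the same amount in both control groups and lay on opposite sides of it elsewhere. On the TMM scale, which sets libraries of 1 table against each other by a trimmed mean of gene ratios, the summed level was 5060, 5353 and 5304 CPM in LUC and 4560, 4169 and 4359 CPM in the libraries labelled Arid3a, all of which lay under the lowest LUC library. In the other table it was 5233, 5118 and 4195 CPM in sh-ctrl, 6045 and 7767 in shArid3a, and 8661, 7078 and 6907 in miR-125b. Both groups lay above the highest control, and sh-ctrl replicate 3 was the low library among the controls. Means were 5239 ± 157 (LUC) and 4363 ± 196 CPM (labelled Arid3a; SD, n = 3 each), and 4848 ± 569 (sh-ctrl, n = 3), 6906 ± 1217 (shArid3a, n = 2) and 7549 ± 967 CPM (miR-125b, n = 3). Large-subunit members summed to 3297 ± 383 CPM in sh-ctrl and 5178 ± 676 in miR-125b, and small-subunit members to 1508 ± 181 and 2296 ± 285 (SD, n = 3 each). In bulk RNA, a change in how many cells of a type are present and a change in RNA per cell cannot be told apart.

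**Figure D1:**
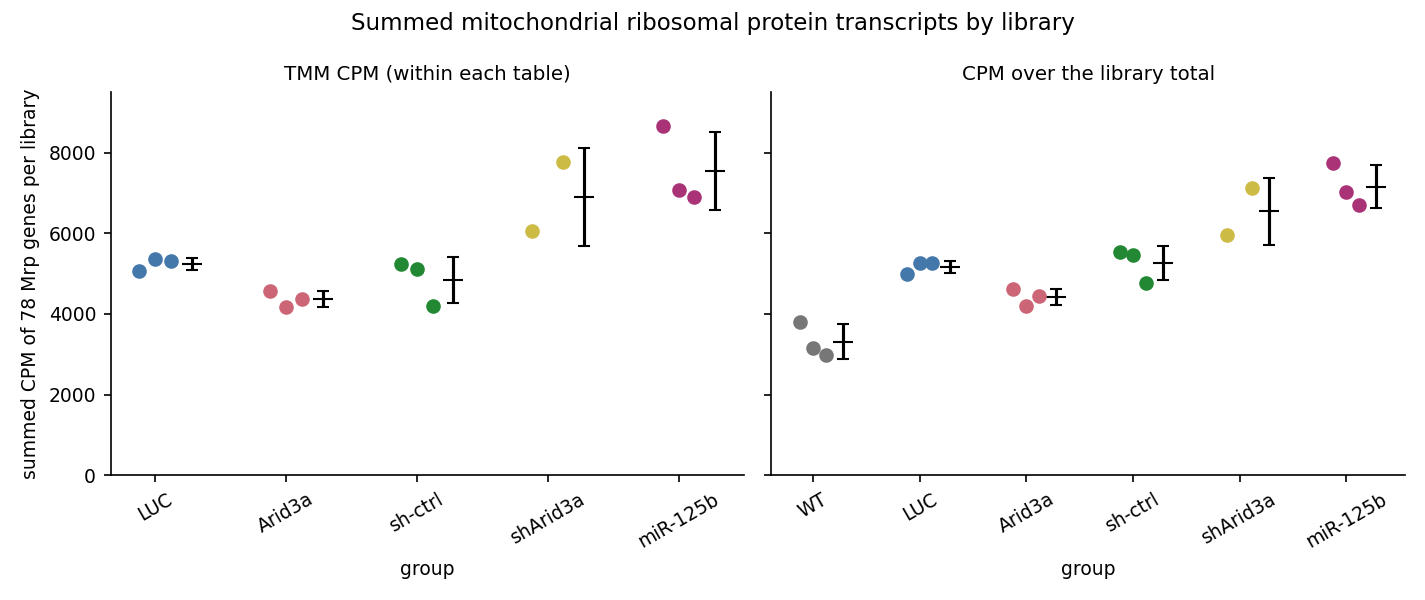
Summed CPM of the 78 Mrp genes (vertical axis, from 0) in each library (points) by group, with group mean and SD (black bars), on the TMM scale within each table (left) and over the plain library total with WT included (right). The 3 libraries labelled Arid3a lie under the 3 LUC libraries, the shArid3a and miR-125b libraries lie above sh-ctrl on both scales, and WT is lowest on the right.

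Against plain library totals the 6 groups could be set side by side, with no test across tables. WT was lowest at 3801, 3150 and 2969 CPM (3307 ± 438), the libraries labelled Arid3a followed at 4419 ± 202, then LUC at 5166 ± 153, sh-ctrl at 5256 ± 426, shArid3a at 6539 ± 822 (n = 2) and miR-125b at 7156 ± 543 (SD, n = 3 unless given). LUC and sh-ctrl did not differ beyond their spread, and shArid3a (5957 and 7120 CPM) overlapped miR-125b (6688 to 7751 CPM). Of the 77 members with counts, 65 were lower in all 3 WT libraries than in every LUC library, and 56 lower than in every sh-ctrl library. Of the 12322 genes with a mean of at least 1 CPM, 34.8% and 26.9% lay apart in the same way. The median log2 ratio of WT to LUC was −0.61 over the members and −0.01 over those genes; against sh-ctrl the medians were −0.59 and 0.12. Mrpl52, a large-subunit protein found in mitoribosomes but not in bacteria, had the lowest ratio of WT to LUC, at 27.2, 15.2 and 16.1 CPM against 94.3, 106 and 99.3 in LUC. Mrps31, a small-subunit protein, went the other way, at 24.5, 26.4 and 20.2 CPM in WT against 17.6, 13.9 and 17.9 in LUC. The part of the marker differences between WT and the Gata1s groups in these levels was not tested.

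Between genes, levels are comparable only per length. Mean CPM per kilobase of exon over the 17 libraries ran from 156 for Mrps16, 139 for Mrpl42 and 138 for Mrpl34 down to 5.98 for Mrpl48 and 6.28 for Mrps10; these were chosen after their values were seen. Exonic length here joins all annotated transcripts of a gene, which lowers the value of genes with long minor transcripts. A length that is too short raises the value. Coordinates matched those of GENCODE M21 for 60 members, and Mrps16, Mrpl42 and Mrpl34 were not among them. Their lengths were 566, 666 and 645 bases. For Mrps16 this is shorter than its 3′ UTR in M21, of 2023 bases, so its place at the top is uncertain. In plain CPM, the order the counts give, Mrpl51, Mrps7 and Mrpl30 had the highest sums and Mrps31 and Mrps6 the lowest among members with counts. Mrpl53, a large-subunit gene on chromosome 6, had 0 counts in all 17 libraries. A count of 0 allows up to 3 counts, which is 0.0734 to 0.183 CPM depending on the library and covers counting error only. Its exons overlap the annotated genes Gm42688 and Ccdc142os, and reads in an overlap can go uncounted, which was not tested. In all, 42 members overlap another annotated gene, 36 of them a gene on the other strand, and whether the counting used strand is not given in the sources used here. Reads can also be split with processed copies: Mrpl23-ps1 had 9 to 128 counts a library, Mrpl48-ps 27 to 83 and Mrps36-ps1 4 to 29, so Mrpl23, Mrpl48 and Mrps36 are less certain.

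The libraries labelled Arid3a were set against LUC, both at 48 h. Arid3a itself did not differ beyond the spread there (log2 fold change 0.08, SE 0.12). Whether the differences below come from the transgene was not tested. Nearly the whole family lay slightly lower: 76 of 77 tested members had a negative log2 fold change, with a median of −0.27 (a fold of 0.831) against 0.01 over all 13495 genes tested. No member passed an adjusted p of 0.05 in edgeR's quasi-likelihood test, which called 0% of all genes. An unadjusted p under 0.05 was found in 57 members and in 2885 of the 13495 genes. In 58 members all 3 libraries lay under all 3 LUC libraries, which held for 14.6% of all genes. By library, 71, 76 and 75 of the 77 members were lower than the LUC mean, with medians of −0.21, −0.32 and −0.25. Both subunits had the same median, −0.27. Summed megakaryocyte markers (9 genes) overlapped, at 2747 to 3188 CPM in LUC and 2458 to 4126 in the libraries labelled Arid3a, as did erythroid markers (10 genes), at 135 to 180 and 134 to 316 CPM. Lists that did not overlap were the 3 pan-hematopoietic markers (39.6 to 57.4 and 79.4 to 99.9 CPM), the 6 of stroma and endothelium (145.8 to 150.6 and 171.8 to 183.2 CPM, with Cdh5 and Col3a1 at 0 in both groups) and the 4 of B and T cells (1.01 to 1.53 and 0.279 to 0.484 CPM, with Cd3e at 0). A summed list does not show which cells hold the transcripts, and the part of cell types in the result was not tested.

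Mrps15 (ENSMUSG00000028861, chromosome 4, 126046925 to 126055532, plus strand, GRCm38), a small-subunit protein with a bacterial counterpart, was at 90.7, 102 and 99.7 CPM in LUC and at 69.3, 69.0 and 64.6 CPM in the libraries labelled Arid3a. The groups did not overlap, and its log2 fold change of −0.53 (SE 0.07, adjusted p 0.0701) was the most negative of the family. Mrpl33, a large-subunit protein, was at 33.0, 40.4 and 38.6 CPM against 28.6, 24.2 and 25.4 (log2 fold change −0.52, SE 0.11, adjusted p 0.0895). Mrps28, Mrpl36 and Mrpl44 followed with log2 fold changes of −0.46, −0.46 and −0.44. All 5 of these had groups that did not overlap, yet their adjusted p-values, 0.0701 to 0.104, missed the threshold. At the other end stood Mrps31 (0.015), Mrps10 (−0.03), Mrpl24 (−0.06), Mrpl15 (−0.08) and Mrpl9 (−0.10), whose groups overlapped. Mrps10 was at 49.0, 51.4 and 49.0 CPM in LUC and 48.5, 48.1 and 49.9 CPM in the libraries labelled Arid3a.

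The count in this comparison rested on 1 library and on the test. Without Arid3a replicate 1, 48 members were called, all lower (23.2% of all genes called), and DESeq2 called 31, all lower (11.8% of the genes it gave an adjusted p). Without the filter on low counts 1 member was called, Mrps15 (0.321% of all genes).

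With the hairpin against Arid3a for 10 days the family lay higher. Of 77 tested members 76 had a positive log2 fold change, with a median of 0.51 (a fold of 1.43) against −0.02 over the 14004 genes tested. Under plain library totals these medians were 0.32 and −0.22. No member was called (the smallest adjusted p was 0.0989), where 0.0857% of all genes were called. Of the members 63 had an unadjusted p under 0.05, as did 3616 of the 14004 genes. In 61 members both shArid3a libraries lay above all 3 sh-ctrl libraries, against 21.6% of all genes. The 2 libraries differed in size: 75 members were higher than the sh-ctrl mean in replicate 1 with a median of 0.33, and 76 in replicate 3 with a median of 0.68. Large-subunit members had a median of 0.52 and small-subunit members of 0.50.

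Mrpl35 (ENSMUSG00000052962, chromosome 6, 71812997 to 71826969, minus strand), a large-subunit protein with a bacterial counterpart, was at 39.5, 42.1 and 31.7 CPM in sh-ctrl and 64.4 and 82.2 CPM in shArid3a. Its log2 fold change was 0.96 (SE 0.20, adjusted p 0.0989), the largest of the family here. Mrps14, a small-subunit protein, was at 69.4, 67.9 and 53.9 CPM in sh-ctrl and 98.1 and 131 in shArid3a (0.85, SE 0.19, adjusted p 0.0989). Mrps22 (0.77), Mrpl36 (0.76) and Mrpl18 (0.76) came next, and in all 5 the hairpin libraries lay above every control. The smallest differences were those of Mrpl24 (−0.07), Mrps10 (0.11), Mrpl38 (0.13), Mrpl54 (0.25) and Mrps2 (0.26), whose groups overlapped. DESeq2 called 24 members, all higher (14.2% of the genes it gave an adjusted p), and 21 were called, all higher, without the filter on low counts (5.7% of all genes).

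With miR-125b for 10 days, 54 of the 77 tested members rose and 0 fell. Among all genes 24.4% were called, 12.1% as higher. The median log2 fold change was 0.62 (a fold of 1.54), with 76 of 77 values positive, against −0.03 over all genes. In 65 members all miR-125b libraries lay above all sh-ctrl libraries, which 22.0% of all genes did. Against the sh-ctrl mean, 77, 75 and 75 members were higher in the 3 libraries, with medians of 0.84, 0.54 and 0.47. Of the large subunit 37 of 50 tested members rose (median 0.66) and of the small subunit 16 of 26 (median 0.59); a difference between subunits was not tested. Mrps36 rose too (0.80).

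Mrps6 (ENSMUSG00000039680, chromosome 16, 92058270 to 92112227, plus strand, GRCm38), a small-subunit protein and the counterpart of bacterial S6, had the largest rise. It was at 14.5, 16.8 and 10.5 CPM in sh-ctrl, 18.1 and 24.7 in shArid3a, and 44.9, 34.7 and 33.5 CPM in miR-125b. Every miR-125b library was above every other library of the table, a 2.70-fold rise over sh-ctrl (log2 fold change 1.43, SE 0.22, adjusted p 0.00572). Mrps6 shares its region on chromosome 16 with Slc5a3, an inositol transporter gene that it overlaps, which was at 2.17 to 2.44 CPM in sh-ctrl and 1.91 to 3.84 in miR-125b and was not called (log2 fold change 0.34, adjusted p 0.526).

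Mrps25 (ENSMUSG00000014551, chromosome 6, 92169525 to 92184033, minus strand), a small-subunit protein, was at 64.9, 72.0 and 52.3 CPM in sh-ctrl and at 135.8, 124.8 and 125.4 CPM in miR-125b (log2 fold change 1.03, SE 0.16, adjusted p 0.00609). Mrpl27, at 40.6, 45.0 and 31.7 CPM in sh-ctrl, reached 87.3, 72.0 and 77.6 CPM (1.02, SE 0.18, adjusted p 0.00782). Mrpl42 (0.96) and Mrps7 (0.92) completed the 5 largest, and in each of these the groups were far apart. Mrps7, the counterpart of bacterial S7, which nucleates assembly of the small-subunit head, rose from 96.9, 111 and 84.8 CPM to 204, 192 and 158.

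The family held few exceptions. Mrpl24, which in bacteria starts assembly of the large subunit, was at 97.4, 77.96 and 93.3 CPM in sh-ctrl and 93.3, 83.3 and 81.3 CPM in miR-125b, with a log2 fold change of −0.06 (SE 0.13, adjusted p 0.76). It was the 1 negative value. Its groups overlapped in every comparison. Mrps2 (0.11), Mrps10 (0.12), Mrpl44 (0.15) and Mrpl10 (0.18) were also not called. Mrpl10 belongs to the stalk of the large subunit that receives translation factors, with Mrpl11 and Mrpl12; of the stalk genes and Mrpl1, 3 of 4 rose (median 0.66). Under plain library totals Mrps2, Mrps10, Mrpl44 and Mrpl10 turned slightly negative, from −0.09 to −0.02.

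The 3 Mrps18 genes descend from 1 bacterial S18 gene, and their proteins sit at different places, that of Mrps18a in the large subunit and the others in the small one. With miR-125b Mrps18a rose by 0.60 (adjusted p 0.0445) and Mrps18c by 0.60 (adjusted p 0.0419), while Mrps18b had 0.29 (adjusted p 0.341). Mrps18b was at 21.4, 29.0 and 18.5 CPM in sh-ctrl and 34.0, 26.8 and 23.6 in miR-125b, so its groups overlapped. The call of Mrps18a was lost in 6 of 19 alternatives (adjusted p 0.00692 to 0.164) and that of Mrps18c in 8 of 19 (0.0155 to 0.364), in edgeR or DESeq2 fits. In the libraries labelled Arid3a the 3 had −0.24, −0.40 and −0.29, and with the hairpin 0.58, 0.66 and 0.55, for Mrps18a, Mrps18c and Mrps18b in turn.

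**Figure D2:**
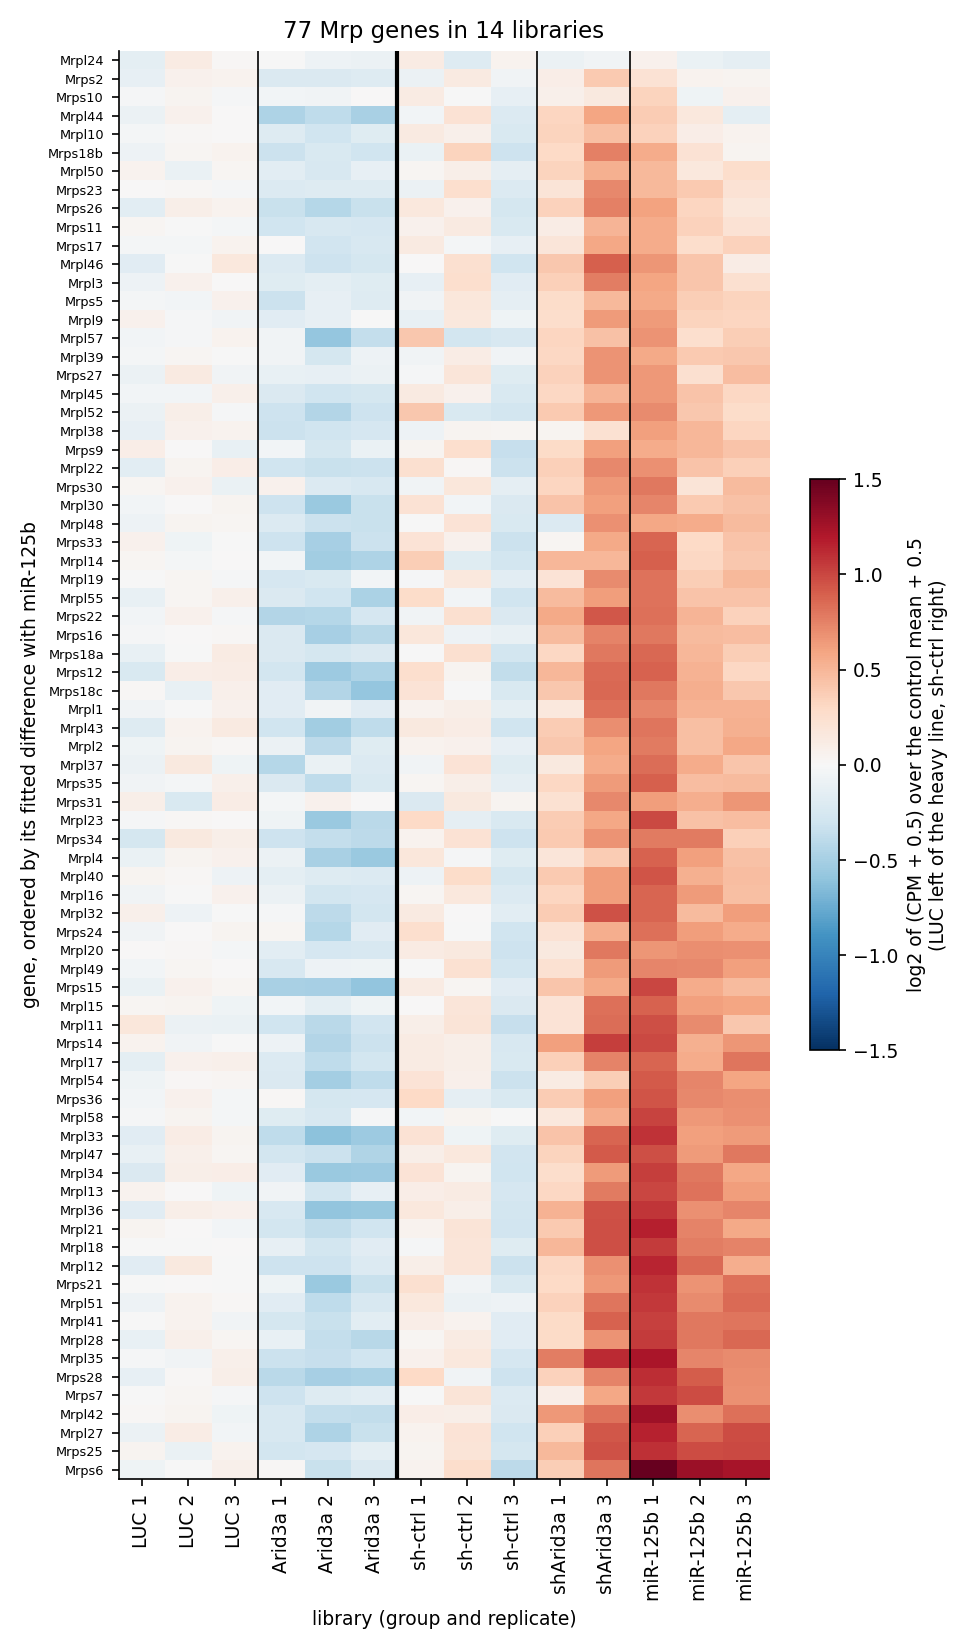
Each of the 77 Mrp genes with counts (rows, ordered by the miR-125b difference) in 14 libraries (columns). Colour is log2 of CPM plus a pseudocount of 0.5 over the mean of the table's control group, red higher and blue lower; blue fills the libraries labelled Arid3a, red fills shArid3a and miR-125b, and sh-ctrl 3 is paler blue than the other controls.

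The size of the count in miR-125b depended on 2 libraries and on the scale. Without sh-ctrl replicate 3, the low control, 11 members were called (5.3% of all genes), and without miR-125b replicate 1, the high one, 27 (12.7%). Under plain library totals 35 members rose (23.9% of all genes called, 890 higher and 2452 lower in place of 1700 and 1714), with a member median of 0.42 beside an all-gene median of −0.22. DESeq2 called 62 (31.3%). The 11 members called in every alternative run were Mrpl18, Mrpl27, Mrpl28, Mrpl41, Mrpl42, Mrpl51, Mrpl58, Mrps6, Mrps7, Mrps21 and Mrps25. Mrpl58 differs from the rest in kind: it is a peptidyl-tRNA hydrolase, which frees stalled chains, built into the large subunit (log2 fold change 0.80, SE 0.15, adjusted p 0.00924). The 10 erythroid markers summed to lower levels with miR-125b, at 349 to 661 CPM in sh-ctrl, 320 to 335 in shArid3a and 172 to 203 in miR-125b, and megakaryocyte markers overlapped (2980 to 4681, 3123 to 3149 and 2794 to 3513 CPM). Granulocyte and monocyte markers were at 50.2 to 110, 33.1 to 58.7 and 79.6 to 145 CPM. Slc4a1 had 0 counts in all 3 groups. Pan-hematopoietic markers were at 36.8 to 49.2, 40.1 to 54.4 and 50.5 to 70.9 CPM, and stroma and endothelium markers at 143.9 to 168.0, 130.8 to 131.2 and 98.2 to 172.0 CPM. Of the last list Cdh5 and Col3a1 were at 0 in all 3 groups, and Col1a1 was at 0 in shArid3a. The part of cell types in the results was not tested.

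The comparison of miR-125b with shArid3a asks how the microRNA differs from the hairpin against Arid3a. The level of Arid3a in the miR-125b libraries was under that in shArid3a (log2 fold change −1.13, adjusted p 0.024), so the groups differ in its level too. Of 77 members 56 were higher with miR-125b, and the median was 0.10 against −0.01 over all genes. No member was called, where 1.35% of all genes were. An unadjusted p under 0.05 was found in 6 members and in 2033 of the 14004 genes. In 11 members the miR-125b libraries lay above both hairpin libraries (14.4% of all genes did). Mrps6 (0.82, SE 0.245, adjusted p 0.146), Mrps7 (0.56), Mrpl54 (0.51), Mrpl58 (0.43) and Mrpl28 (0.42) had the largest values, and Mrpl44 (−0.32), Mrps18b (−0.26), Mrpl46 (−0.26), Mrpl10 (−0.22) and Mrps26 (−0.19) the most negative. Mrps6 was the 1 member called by DESeq2 (adjusted p 0.0329, 5.22% of genes called) and without the filter on low counts (adjusted p 0.0312, 3.3% of genes called). The family median turned to −0.03 without miR-125b replicate 1 and to −0.09 without shArid3a replicate 1.

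Set side by side, 75 of the 77 members were lower in the libraries labelled Arid3a and higher with both the hairpin and miR-125b. The share of all genes with this joint pattern was not computed. Taken singly, 6561 of 13495 genes were lower in the libraries labelled Arid3a. Of 14004 genes, 6778 were higher with the hairpin and 6779 with miR-125b. Among protein-coding genes of up to 1000 bases, 19.0% were higher in the libraries labelled Arid3a, 78.8% with the hairpin and 79.7% with miR-125b. Comparisons with the hairpin and with miR-125b share their 3 sh-ctrl libraries, so their common direction is in part the same measurement; the first comparison has controls of its own. Mrpl54 had separate groups in the pair, though the difference was not called, at 97.1, 89.0 and 67.1 CPM in sh-ctrl, 91.8 and 109 in shArid3a and 160, 141 and 128 in miR-125b. Mrpl35 had overlapping groups there, and its log2 fold changes were 0.96 with the hairpin and 0.92 with miR-125b.

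**Figure D3:**
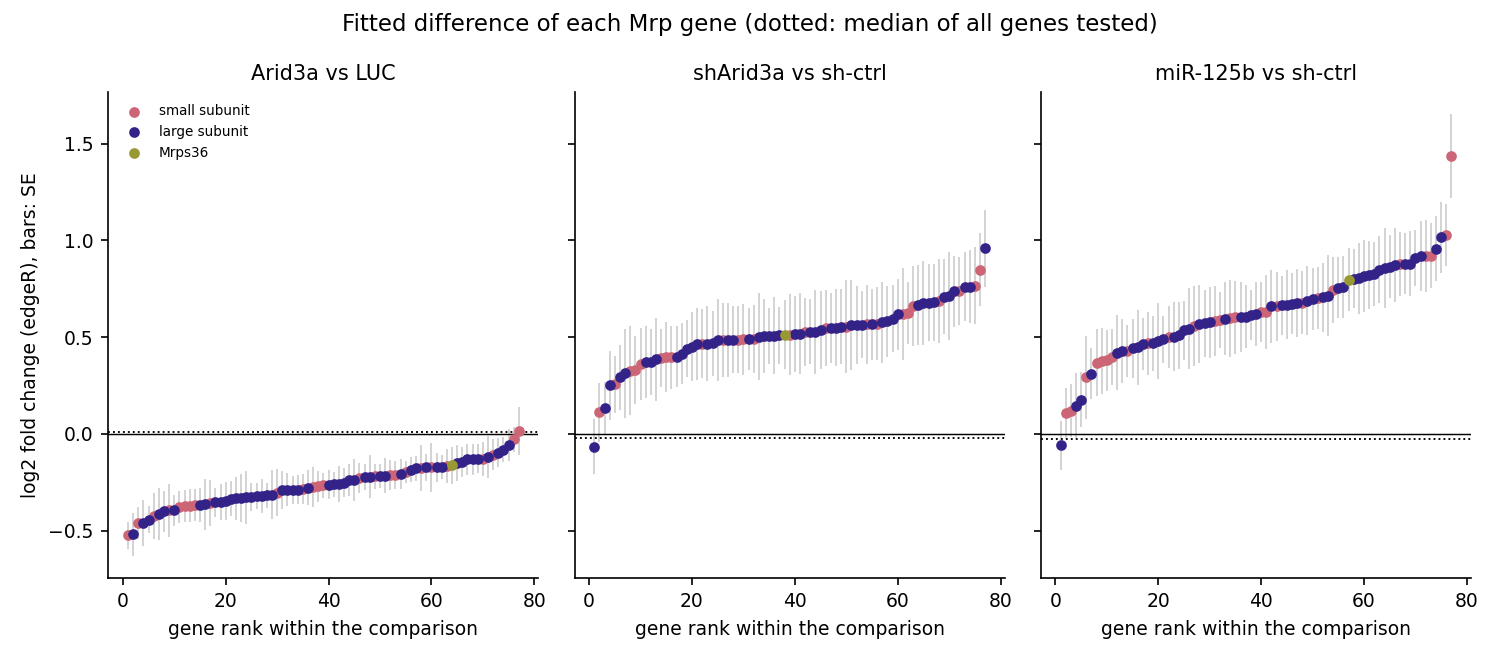
Fitted log2 fold change of each tested Mrp gene (points, bars are SE) by rank within 3 comparisons, coloured by subunit; dotted lines mark the median of all genes tested. Values run from −0.53 to 0.01 in the libraries labelled Arid3a, from −0.07 to 0.96 with the hairpin and from −0.06 to 1.43 with miR-125b, with both subunits spread through each range.

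Gene length moved with all 3 comparisons and is given beside them. Among all protein-coding genes tested, the median log2 fold change with miR-125b was 0.57 for exonic lengths up to 1000 bases and −0.30 above 5000 bases. The Mrp genes, many of them short, had 0.83 (12 members) and 0.56 (12 members) in the same classes. With the hairpin the medians were 0.47 and −0.27 for all genes and 0.59 and 0.49 for members, and in the libraries labelled Arid3a −0.27 and 0.16 for all genes and −0.34 and −0.17 for members. A difference between members and other genes of a class was not tested. The classes used the same lengths as above. Mrps16 and Mrpl32, with 3′ UTRs of 2023 and 2302 bases in GENCODE M21, thus stood in the class up to 1000 bases. Lengths under their 3′ UTR in M21 were also used for Mrpl17 (4153 against 6651 bases), Mrps30 (1590 against 1972) and Mrpl57 (2321 against 2471).

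**Figure D4:**
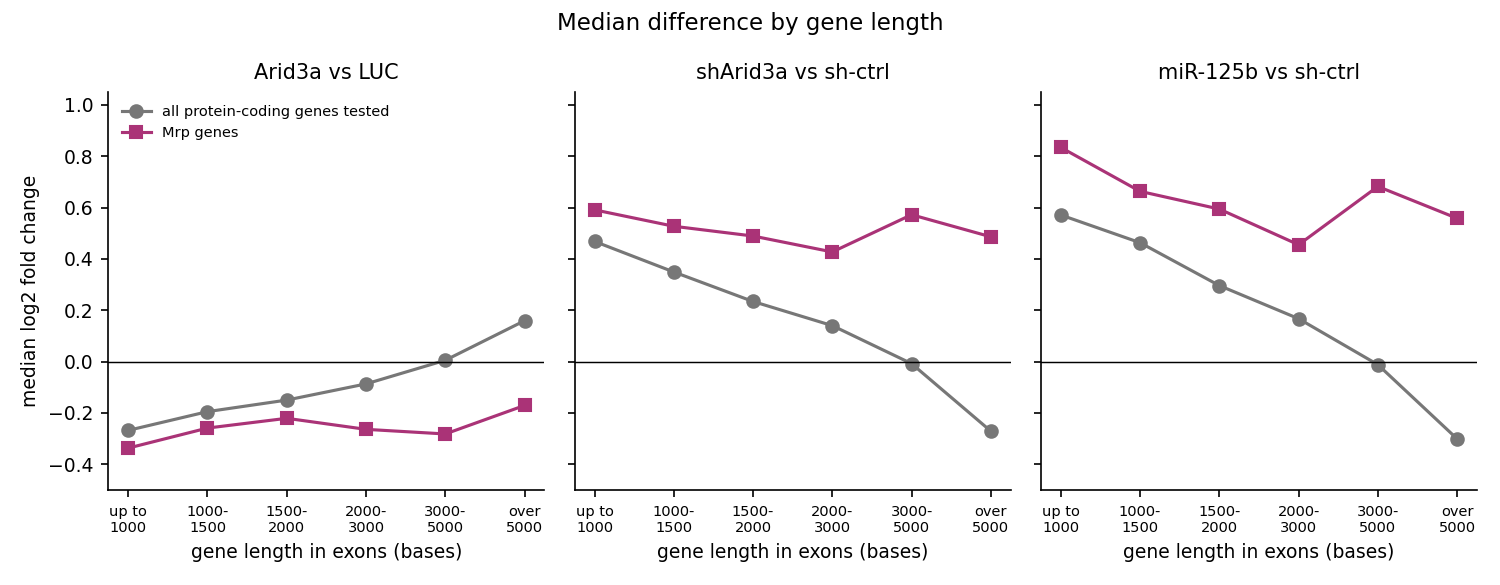
Median log2 fold change (vertical axis) by exonic length class (horizontal axis, bases) for all protein-coding genes tested (grey) and for Mrp genes (purple) in 3 comparisons. The grey line slopes down with length for shArid3a and miR-125b and up for the libraries labelled Arid3a, and the purple line lies beyond it, away from 0 or on the other side of 0, in every class.

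With the trend on length taken out for all genes by an offset, an alternative chosen after the data were seen, 40 members rose with miR-125b (17.8% of all genes called), 37 of them among the 54, and the median was 0.48 with 74 of 77 values positive. With trends on length and GC content taken out, 43 rose (17.7%), 40 of them among the 54, with a median of 0.49. In the libraries labelled Arid3a the median moved to −0.19 in both, with 69 of 77 values negative, and with the hairpin to 0.41 and 0.40; no member was called in those comparisons, as before.

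Other genes of the mitoribosome pathway were taken by list. Their counts with miR-125b stand beside 24.4% of all genes called, 12.1% as higher. Whether a list differs from that share was not tested. Of the 5 mitoribosomal proteins with other names, 4 rose with miR-125b (median 0.53): Gadd45gip1 (0.65) of the large subunit, and Aurkaip1 (0.53) and Dap3 (0.45) of the small subunit were the 3 with the smallest p. Of 25 assembly factors 6 rose and 1 fell (median 0.36), among them Noa1 (0.80) and Ddx28 (0.78), a GTPase and a helicase that help build the subunits, and Mrm2 (0.84), a methyltransferase of the large ribosomal RNA. Of 15 translation factors 5 rose and 1 fell (median 0.22): Slirp (0.99), which keeps mitochondrial messages stable, and Oxa1l (0.60), which inserts new chains into the inner membrane, rose, and Gfm2 (−0.80), a factor that recycles ribosomes, fell. Gfm2 was also called as lower in miR-125b against shArid3a (−1.08, adjusted p 0.0147), the 1 list gene called in that comparison. The 17 mitochondrial tRNA synthetases had 3 rises and 1 fall (median 0.06); Yars2 rose (0.73) and Mars2 fell (−0.55). Lars2 rose by 3.10, and by 3.39 with the hairpin, the 1 list gene called there, but reads of ribosomal RNA can be assigned to this locus in mouse, so its count is uncertain. Under plain library totals the splits of rises and falls were 1 and 0, 4 and 1, 3 and 1, and 1 and 2. These are for the 4 lists in order, and the synthetase median turned to −0.13. On that scale 890 of all 14004 genes were called as higher and 2452 as lower. Calls with miR-125b were lost in 6 of 19 alternatives for Aurkaip1, 5 for Dap3, Yars2 and Mars2, 4 for Mrm2, 2 for Gfm2 and 1 for Gadd45gip1. Without the trends on length and GC content described above, Mars2 had −0.07 and Gfm2 −0.40, neither called.

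Genes of the mitochondrial genome, which include the RNA partners of these proteins, were read next. Of the 15 genes 3 fell with miR-125b and 0 rose (median −0.31), where 24.4% of all genes were called. Their summed level overlapped, at 42780, 23700 and 38110 CPM in sh-ctrl and 27480, 19030 and 22400 in miR-125b. The 3 that fell were mt-Nd5 (−1.45), mt-Co1 (−1.20) and mt-Nd4l (−1.83), subunits of complexes I and IV. The call of mt-Nd4l was lost in 3 of 19 alternatives and that of mt-Co1 in 2. The 12S rRNA of the small subunit, mt-Rnr1, was at 1589, 540 and 1132 CPM in sh-ctrl and 953, 677 and 989 in miR-125b. The 16S rRNA of the large subunit, mt-Rnr2, was at 2491, 769 and 1488 CPM in sh-ctrl and 1332, 803 and 1121 in miR-125b. Both overlapped and neither was called (−0.32, adjusted p 0.487, and −0.54, adjusted p 0.281). The sh-ctrl libraries were spread widely in both, and how far rRNA was removed before sequencing is not given in the sources used here, so these 2 levels are weak measures. Of 12 tested regulators of mitochondrial biogenesis, Tfam, which packages mitochondrial DNA, rose (0.50), Gabpb2, a partner subunit of GABPA, fell (−0.94) and the median was 0.04. Polrmt, the mitochondrial RNA polymerase, had 0.35 (adjusted p 0.0797). The call of Tfam was lost in 6 of 19 alternatives. Under plain library totals 0 of these 12 rose, 2 fell and the median turned to −0.16. The all-gene median on that scale was −0.22.

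The nearest parallels were other ribosomal and respiratory genes, given beside 24.4% of all genes called with miR-125b (12.1% as higher). Of 81 tested cytosolic ribosomal protein genes 40 rose with miR-125b and 0 fell (median 0.55), and of 80 nuclear respiratory chain genes 62 rose and 0 fell (median 0.73). Under plain library totals these were 22 and 54, again with 0 falls. Among all 14004 genes 890 were then called as higher and 2452 as lower. With the hairpin the medians were 0.52 and 0.54, and in the libraries labelled Arid3a −0.32 and −0.28, with 0 called in both. The Mrp genes thus had the same sign as these families in each comparison, and a difference between the families was not tested. Proliferation genes had a median of 0.34 with miR-125b, with 5 of 20 risen, among them Birc5 (0.66) and Tyms (0.67), and Mki67 (−0.86) fallen; under plain library totals 1 rose and 2 fell, and over 19 alternatives the call of Tyms was lost in 5 and that of Birc5 in 1. Their medians were 0.45 with the hairpin and −0.06 in the libraries labelled Arid3a.

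**Figure D5:**
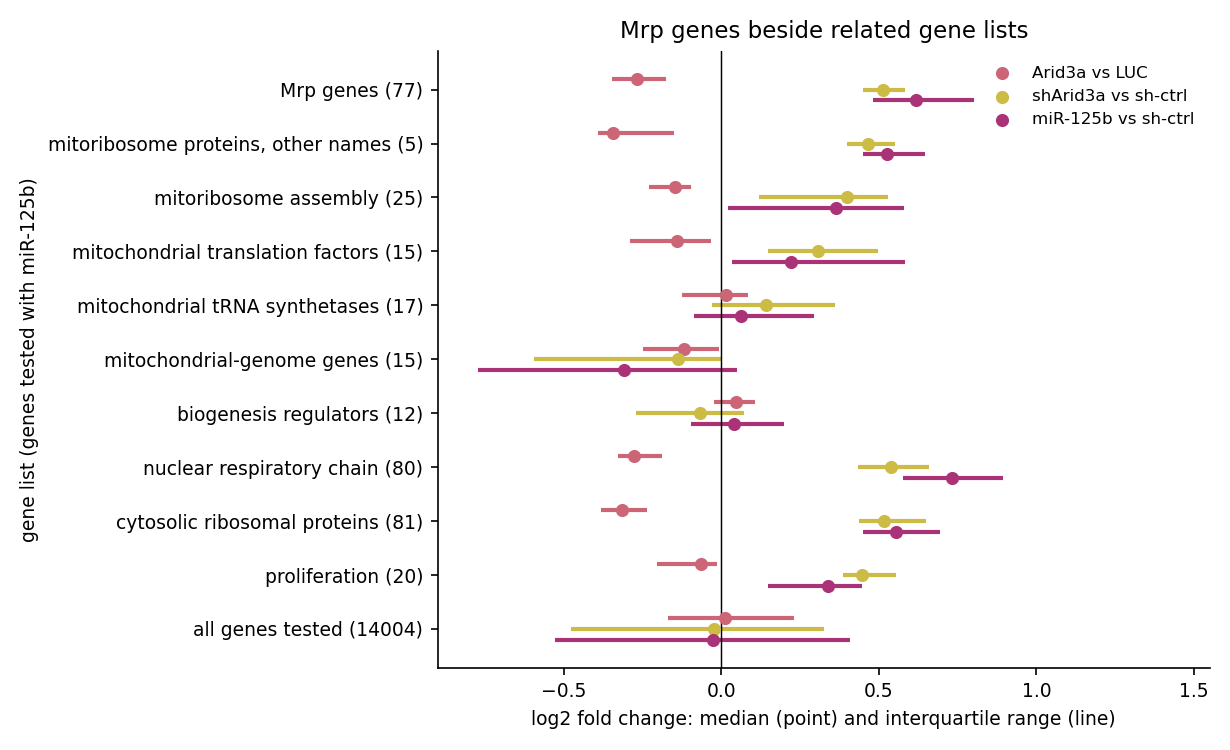
Median log2 fold change (points) and interquartile range (lines) of the Mrp genes, 9 related gene lists and all genes tested, in 3 comparisons on the TMM scale. Mrp, nuclear respiratory chain and cytosolic ribosomal protein genes lie left of 0 in the libraries labelled Arid3a and right of 0 in the others, and the mitochondrial-genome genes lie left of 0 in all 3.

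The genes beside the members were read as well. In 33 members the start of another protein-coding gene, transcribed the other way, lies within 1000 bases. These 33 members had a median of 0.61 with miR-125b, and 20 rose; the remaining 44 tested members had 0.64, and 34 rose. The neighbours that are not Mrp genes themselves (29 tested of 31) had a median of −0.08, with 5 risen and 3 fallen, 24.4% of all genes being called. Ndufs6 (0.93) and Ndufb5 (0.77), subunits of respiratory complex I, were among the neighbours that rose, and Wdfy1 (−1.01) and Klc4 (−0.73) among those that fell; these were chosen after their values were seen. With the hairpin and in the libraries labelled Arid3a the neighbours' medians were 0.04 and −0.06, against 0.53 and −0.26 for the 33 members beside them.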

How the data were processed

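RNA from 17 libraries was sequenced, and the deposited tables hold raw gene counts that the authors left unnormalized, per the file headers and the values. Per the submitters' processing notes the tools were fastp, HISAT2 2.0.5 and featureCounts with mm10; use of strand is not given in the sources used here. RNA was extracted with a Zymo kit, per the labels' protocols. Tables were joined by Ensembl identifier, and 0 columns of counts went unused. No libraries were duplicates.

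Each table was fitted whole with edgeR 4.0.16 (R 4.3.3; TMM, filterByExpr, glmQLFit, glmQLFTest), giving 13495 and 14004 genes tested, and genes with a Benjamini-Hochberg adjusted p under 0.05 over all of them were called. The 3 knockdown-table groups share 1 fit. DESeq2 1.42.0 was an alternative. CPM used TMM unless library totals are named. The edgeR steps were tested on simulated data.

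The members and lists were chosen with earlier results of these data known, and lists come from general knowledge. Named were, per comparison, the 5 most positive and 5 most negative tested members with a mean of at least 5 CPM, the 3 Mrps18 genes, the 3 highest and 3 lowest by summed CPM, members not tested, Arid3a, mt-Rnr1, mt-Rnr2 and the 3 genes of each list with the smallest p; the last are given for miR-125b, with the calls of other comparisons (Lars2 and Gfm2). For cytosolic ribosomal, respiratory chain and neighbour genes counts were given, with examples as stated.

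Deviations from group means of libraries with the same number correlated at 0.151 to 0.427 in the 3 sh-ctrl and miR-125b pairs. Libraries with different numbers gave −0.364 to 0.205 there, which overlaps. For Arid3a and LUC the ranges were 0.008 to 0.365 and −0.345 to 0.2. The 2 shArid3a libraries gave 0.161 to 0.431 with sh-ctrl, and −0.431 to 0.364 across numbers. Deviations within a group cancel out, so these values are not independent, and pairing by number is not settled. The main fits used no pairing, and a replicate block was an alternative.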

Additional observations from a re-analysis of the deposited data

How the results depend on the processing

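Alternatives covered the scaling, the filter on low counts, the test, a replicate block, ribosomal RNA-like genes, single libraries and, added after the data were seen, trends with length and GC content. Members called in the libraries labelled Arid3a numbered 0, and 1 without a filter, 31 with DESeq2 and 0 to 48 leaving out 1 library; their median moved to −0.185 without the length trend and −0.187 without those on length and GC content. With the hairpin they numbered 0, and 21 without a filter, 24 with DESeq2 and 0 to 3 leaving out 1 library. With miR-125b they numbered 54, and 35 under library totals (median 0.424) and 11 to 55 leaving out 1 library. Against shArid3a 1 was called without a filter and 1 with DESeq2, and the median ranged from −0.086 to 0.282 leaving out 1 library. The cause of these changes was not tested. In fits with a replicate block, 0, 0, 55 and 0 members were called in the 4 comparisons in the order given. These fits called 0%, 0.107%, 26.3% and 1.82% of all genes. Of the 55 members, 53 were among the 54 of the unblocked fit. The member medians were −0.267, 0.532, 0.624 and 0.091. The block changed the sign of 1 named member, Mrps18a against shArid3a (−0.036), and moved no count of members by over 1.5 times.

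Signs also turned for some members, not all of which were near 0 in the main fit. In the libraries labelled Arid3a these were Mrps10 (0.01 under library totals), Mrpl24 (0.037 and 0.034 without the length trend and without both trends, −0.126 to 0.006 leaving out 1 library) and Mrps31 (−0.092 to 0.074). With the hairpin they were Mrps10 (−0.08) and Mrpl38 (−0.064) under library totals and Mrpl54 (−0.018) without the length trend. With miR-125b, library totals gave −0.086 for Mrps2, −0.078 for Mrps10, −0.049 for Mrpl44 and −0.016 for Mrpl10; without the length trend and without both trends Mrpl44 had −0.089 and −0.132 and Mrpl10 −0.039 and −0.052, and Mrps10 ranged from −0.001 to 0.202 leaving out 1 library. Against shArid3a, Mrps18a had −0.018 without both trends, and leaving out 1 library gave −0.203 to 0.274 for Mrps18a, −0.277 to 0.187 for Mrps18c, −0.482 to 0.005 for Mrpl46 and −0.388 to 0.03 for Mrps26. Mrpl46 and Mrps26 were among the most negative members against shArid3a in the main fit. Of the other values of named genes 1212 kept their side, 59 lost a call and 31 gained one. With 2 or 3 libraries a group, smaller differences could not be resolved.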
